A study of Homo sapiens with 18 samples.

Results

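The comparison described here set the TRIM24 degrader dTRIM24 against the bromodomain ligand IACS-9571 after 4 h in MOLM-13 cells, a human acute monocytic leukaemia line. Each gene's difference was log2(FPKM + 1) with dTRIM24 minus log2(FPKM + 1) with IACS-9571, and a gene was kept where either group had at least 1 FPKM. This kept 11069 of 23621 gene rows. The 3 libraries of dTRIM24 at 4 h and the 3 of IACS-9571 at 4 h were taken from a series of 18 libraries, whose remaining groups of 3 were DMSO, the solvent control, at 4 h, and dTRIM24, IACS-9571 and DMSO at 24 h. No group carried a genetic change that the labels name, and no source used here gives the doses. The sample titles, the time points and the series design say 4 h or 24 h, while the treatment protocol of every sample says 24 h, and the titles were followed. Whether the 3 libraries of a group came from separate cultures is not stated.

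TRIM24 is a chromatin protein whose PHD finger and bromodomain read the histone H3 tail, and BRPF1 is a scaffold of acetyltransferase complexes with a bromodomain of its own. IACS-9571 occupies both bromodomains. In dTRIM24 a bromodomain ligand is joined to a ligand of VHL, which recruits substrates to a ubiquitin ligase, and this can bring TRIM24 protein to the proteasome. The comparison therefore sets a bifunctional degrader beside a ligand that only binds.

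For each group the table gives a gene 1 value, the mean FPKM. There is no value per library, so no difference below has a replicate error or a test, and "past 2-fold" means only a difference of at least 1 on the log2(FPKM + 1) scale. The read depth is unknown. As a scale, 25 spike-in RNAs with at least 5 FPKM had a median difference of 0.02 and an SD of 0.22 between the 2 groups, with single spike-ins between -0.20 and 0.88. The floor of 1 FPKM fell between genes of nearly equal level. NMRK1, at 0.999 FPKM with dTRIM24 and 0.809 FPKM with IACS-9571, stayed out, while C2orf27A, at 1.0004 FPKM with dTRIM24 and 0.862 FPKM with IACS-9571, was kept. The 2 columns summed to 971048 FPKM with dTRIM24 and 987863 FPKM with IACS-9571. The myeloid identity of the line was checked on 10 markers, of which 9 were kept. PRTN3 stood at 317 FPKM with dTRIM24 and 314 FPKM with IACS-9571, and CD33 at 27.8 FPKM with dTRIM24 and 28.0 FPKM with IACS-9571. CD14 was under the floor in both groups. Of 6 markers of other cell sources none reached 1 FPKM, and the highest stood at 0.13 FPKM.

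Nearly all rows past 2-fold between the compounds at 4 h were named as kinds of RNA that carry no poly(A) tail. Of all kept rows, 166 were past 2-fold higher with dTRIM24 than with IACS-9571, 1.5% of them, and 38 were past 2-fold lower, 0.343%. Rows whose symbols name such kinds made up 248 of the kept rows and held 163 of the higher and 34 of the lower ones. Whether the reads on these rows came from RNA without a tail was not tested. Among the other 10821 genes only 3 were higher, 0.0277%, and 4 lower, 0.037%. At 1.5-fold the counts were 188 higher, 1.7%, and 51 lower, 0.461%, over all kept rows, and 7 higher, 0.0647%, and 12 lower, 0.111%, among the other genes.

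Kept rows that reached the floor only with dTRIM24 had to be higher with it, though not by 2-fold. The same counts were therefore taken over all rows, kept or not, with at least 1 FPKM in DMSO at 4 h. That group is outside the contrast. Of these rows 69 were past 2-fold higher with dTRIM24 than with IACS-9571, 0.637%, and 15 lower, 0.138%. Of the other genes among them, 2 of 10706 were higher and 3 lower. No source used here says how RNA was selected for the libraries, and its part in the result was not tested.

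**Figure D1:**
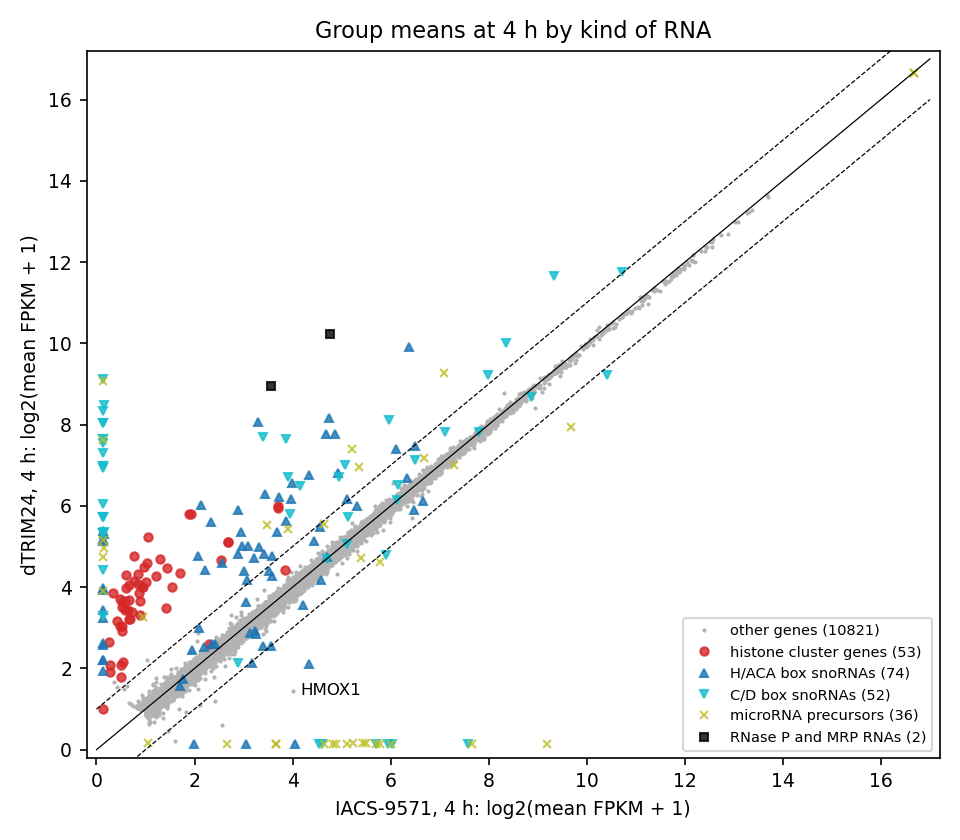
Mean level at 4 h with dTRIM24 (vertical axis) against IACS-9571 (horizontal axis), both as log2(FPKM + 1), with 1 point per kept gene and the kind of RNA by colour. The solid line marks equal levels and the dashed lines a difference of 1; the grey points of the 10821 other genes follow the solid line, while the histone genes and the RNase P and MRP RNAs stand above it and microRNA precursors lie on both sides.

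Replication-dependent histone genes were the kind with the most members past 2-fold higher with dTRIM24, 50 of 53. Their mRNAs, made in S phase from the histone clusters, end in a short stem-loop that SLBP binds, where most mRNAs have a poly(A) tail. The stretch around this element is shown for 6 of the kept genes in which a search found it. Its presence does not show that the reads on these rows came from RNA without a tail. The capitals mark the stem, the loop TTTC and the returning stem, in GENCODE transcripts on GRCh38. Whether the stretch lies at the 3′ end of the transcript was not checked.

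HIST2H3A: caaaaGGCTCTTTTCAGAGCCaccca
HIST2H2BF: ccaaaGGCTCTTTTCAGAGCCacttc
HIST1H2AI: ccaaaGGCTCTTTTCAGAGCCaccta
HIST1H3H: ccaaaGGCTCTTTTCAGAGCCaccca
HIST1H4E: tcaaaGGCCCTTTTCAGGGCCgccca
HIST1H4H: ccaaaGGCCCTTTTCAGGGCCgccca

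The search asked for a stem of 6 paired bases that starts with GG around the loop TTTC, on the transcript strand. It found the element in 16 of the 53 kept histone genes, in 2 forms, carried by 12 and 4 genes. For 25 of the 53 all transcripts were classed here as coding sequence only, yet 1 of these 25 held the element. That class was not checked against annotated coding regions, so the split into 25 and 28 is approximate. Among the 28 genes outside the class the element was present in 15, or 53.6%, a share that depends on the same split. Of 57043 other gene names 12 held it, or 0.021%.

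The table lists 72 histone cluster genes, of which 53 were kept, and 50 of these were past 2-fold higher with dTRIM24 than with IACS-9571, with 0 lower. Their median difference was 2.79, against -0.02 for the other genes. Over all 72 rows with no floor the median was 2.46. Of the 14 with at least 1 FPKM in DMSO at 4 h, 12 were past 2-fold higher and 0 lower, with a median of 2.43, and dTRIM24 at 4 h was the highest of the 6 groups for all 14 of them, against 23.9% of all gene rows with that DMSO level. The 53 genes summed to 916 FPKM with dTRIM24, 94.7 FPKM with IACS-9571 and 72.6 FPKM with DMSO. In both the IACS-9571 and the DMSO group at 4 h these RNAs were thus low and near each other, and dTRIM24 stood apart.

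The linker histones, the H1 proteins that bind between nucleosomes, had 4 kept genes of 6 and 3 past 2-fold. Only 1 of the 4 had at least 1 FPKM in DMSO at 4 h, and it passed. HIST1H1B had 21.4 FPKM with dTRIM24, 0.960 FPKM with IACS-9571 and 0.256 FPKM with DMSO, a difference of 3.52 from IACS-9571. HIST1H1E had 16.9 FPKM with dTRIM24, 0.693 FPKM with IACS-9571 and 0.289 FPKM with DMSO. HIST1H1C, the H1 gene with the most RNA in DMSO, had 15.1 FPKM with dTRIM24, 1.91 FPKM with IACS-9571 and 1.86 FPKM with DMSO. HIST1H1D was at 1.005 FPKM with dTRIM24 and 0.102 FPKM with IACS-9571, a difference of 0.86 that stayed under 2-fold.

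The H2A and H2B genes encode the dimers that flank the core tetramer. All 15 kept H2A genes were past 2-fold higher with dTRIM24 than with IACS-9571, with a median of 2.44. HIST1H2AJ had the largest difference among them, at 18.6 FPKM with dTRIM24, 0.520 FPKM with IACS-9571 and 0.562 FPKM with DMSO, followed by HIST1H2AH at 13.6 FPKM with dTRIM24 and 0.268 FPKM with IACS-9571. HIST1H2AI, HIST1H2AG and HIST1H2AM had differences of 3.49, 3.07 and 3.04. Only 5 of the 15 H2A genes had at least 1 FPKM in DMSO at 4 h, and all 5 passed with a median of 2.43. Of 14 kept H2B genes 12 passed, with a median of 2.82. Among the 4 with at least 1 FPKM in DMSO at 4 h, 2 passed and the median was 1.62. HIST2H2BF had 23.2 FPKM with dTRIM24, 1.05 FPKM with IACS-9571 and 0.223 FPKM with DMSO, and HIST1H2BF, HIST1H2BO, HIST1H2BD and HIST1H2BG had differences of 3.38, 3.24, 3.03 and 3.01. The 2 H2B genes that did not pass were those with the most RNA without dTRIM24 among the kept H2B genes. Rows were taken by symbol, and whether each of them encodes a protein or gives an mRNA without a tail was not checked. HIST1H2BK had 20.6 FPKM with dTRIM24, 13.3 FPKM with IACS-9571 and 13.3 FPKM with DMSO, a difference of 0.59. HIST2H2BC had 5.11 FPKM with dTRIM24, 3.88 FPKM with IACS-9571 and 4.42 FPKM with DMSO, a difference of 0.32.

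The H3 and H4 genes encode the tetramer at the nucleosome's core. All 8 kept H3 genes were past 2-fold, with a median of 2.89. Only 2 of them reached 1 FPKM with IACS-9571 and 0 did with DMSO. The rest were thus kept only through dTRIM24, which fixed their direction though not the size of the difference. HIST2H3A had the largest difference of any histone gene, at 4.19, with 36.8 FPKM with dTRIM24, 1.07 FPKM with IACS-9571 and 0.521 FPKM with DMSO. HIST1H3B followed at 26.2 FPKM with dTRIM24 and 0.701 FPKM with IACS-9571, and HIST1H3I, HIST1H3H and HIST2H3D had differences of 3.22, 3.12 and 2.67. All 12 kept H4 genes passed too, with a median of 3.08. Only 4 of the 12 had at least 1 FPKM in DMSO at 4 h, and these 4 had a median of 3.09. HIST2H4A and HIST2H4B, near-identical copies whose reads the counting could share, had 54.6 and 55.1 FPKM with dTRIM24 and 2.69 and 2.78 FPKM with IACS-9571. HIST1H4E, HIST1H4C and HIST1H4H had differences of 3.40, 3.38 and 3.11. The highest level of all was that of HIST1H4K, chosen after its values were seen, at 62.6 FPKM with dTRIM24, 12.002 FPKM with IACS-9571 and 8.02 FPKM with DMSO.

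**Figure D2:**
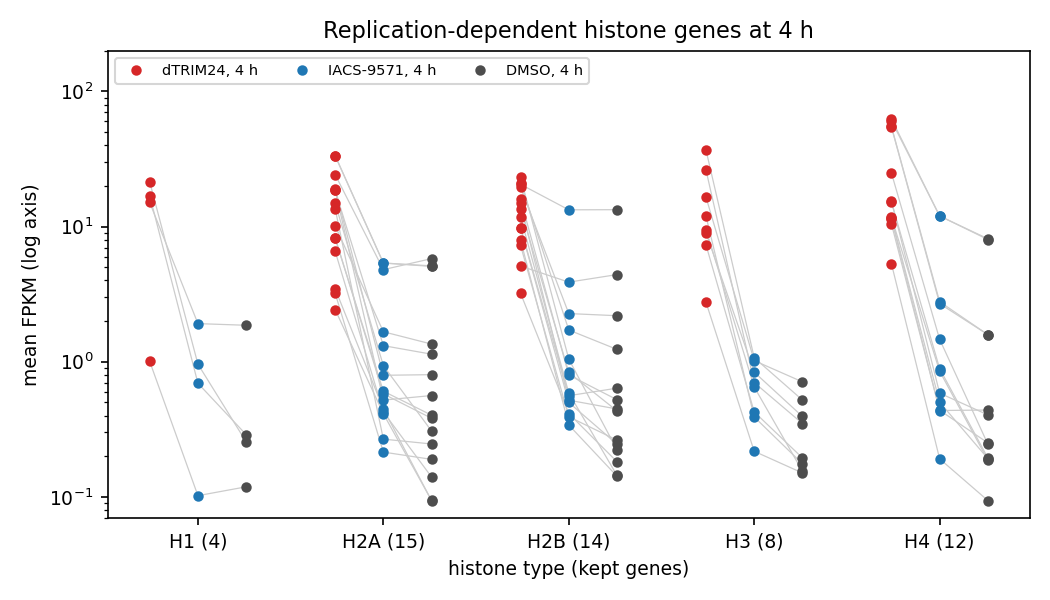
Mean FPKM (log axis) of the 53 kept histone cluster genes at 4 h by histone type, with dTRIM24 on the left of each type, IACS-9571 in the middle and DMSO on the right, and a line joining each gene. Nearly all lines drop between dTRIM24 and IACS-9571 and run nearly level or lower between IACS-9571 and DMSO; HIST1H2BK and HIST2H2BC stay nearly flat.

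Both large clusters held such genes. The 41 kept genes of the cluster named HIST1 had a median of 2.99 with 39 past 2-fold. The 12 of the cluster named HIST2 had a median of 2.503 with 11 past 2-fold. Of those with at least 1 FPKM in DMSO at 4 h, 7 of 8 HIST1 genes and 5 of 6 HIST2 genes were past 2-fold. By 24 h the median difference of the 53 genes between dTRIM24 and IACS-9571 was 0.15, against 0.28 for the other genes at that time, and 0 were past 2-fold either way.

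Genes that make, process or use histone mRNA did not stand out in the same way. The 36 kept genes of S phase replication had a median difference of -0.02, equal to that of the other genes, and ranged from -0.29 for CDT1, a licensing factor, to 0.17 for CCNE2, the cyclin E2 gene. CCNE2 had 34.6 FPKM with dTRIM24 and 30.7 FPKM with IACS-9571. The 21 genes of the stem-loop machinery had a median of 0.00, from -0.26 for SYMPK, a scaffold of the cleavage complex, to 0.13 for ERI1, an exonuclease of histone mRNA. The 20 genes of the exosome and of poly(A) tail addition had a median of 0.05, or -0.01 with the trend of the difference with GC content removed. The 11 kept histone variants whose mRNAs carry a poly(A) tail had a median of -0.06 and none was past 2-fold. H3F3A, which encodes the variant H3.3, had 51.4 FPKM with dTRIM24, 85.3 FPKM with IACS-9571 and 27.2 FPKM with DMSO, a difference of -0.72; it has processed copies, so its level is uncertain. H1FX, a linker histone variant, had 19.0 FPKM with dTRIM24 and 24.7 FPKM with IACS-9571, and H2AFX, the variant phosphorylated at DNA breaks, 37.5 FPKM with dTRIM24 and 41.8 FPKM with IACS-9571.

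The catalytic RNAs of RNase MRP and RNase P, both above 10 FPKM with either compound, stood far higher with dTRIM24 than with IACS-9571. RMRP takes part in the processing of ribosomal RNA, and RPPH1 cuts the 5′ leaders from tRNA precursors; both are made by RNA polymerase III. RMRP had 1196 FPKM with dTRIM24, 26.2 FPKM with IACS-9571 and 12.7 FPKM with DMSO, a difference of 5.46 between the compounds. RPPH1 had 493 FPKM with dTRIM24, 10.7 FPKM with IACS-9571 and 2.01 FPKM with DMSO, a difference of 5.397. At 24 h DMSO was highest for both, while dTRIM24 stayed past 2-fold above IACS-9571, with differences of 1.36 for RMRP and 1.70 for RPPH1. RMRP had 20.2 FPKM with dTRIM24, 7.25 FPKM with IACS-9571 and 67.1 FPKM with DMSO, and RPPH1 had 8.57 FPKM with dTRIM24, 1.95 FPKM with IACS-9571 and 23.5 FPKM with DMSO. The 11 genes for the protein subunits that both enzymes largely share had a median difference of -0.06 at 4 h and ranged from -0.25 for RPP21 to 0.13 for RPP40.

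The sequence of RMRP (chr9:35657751-35658018, minus strand, GRCh38, GENCODE) is given with those of 3 RNAs of the minor spliceosome, because each of these short RNAs had its highest level of the 6 groups with dTRIM24 at 4 h. RNU11 lies at chr1:28648600-28648733, RNU12 at chr22:42615244-42615393 and RNU4ATAC at chr2:121530881-121531007, all on the plus strand.

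RMRP: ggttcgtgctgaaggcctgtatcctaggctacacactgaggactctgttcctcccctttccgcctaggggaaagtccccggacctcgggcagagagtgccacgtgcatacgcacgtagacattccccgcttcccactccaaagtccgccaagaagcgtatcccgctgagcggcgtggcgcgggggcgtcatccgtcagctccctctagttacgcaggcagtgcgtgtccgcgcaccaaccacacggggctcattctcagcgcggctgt
RNU11: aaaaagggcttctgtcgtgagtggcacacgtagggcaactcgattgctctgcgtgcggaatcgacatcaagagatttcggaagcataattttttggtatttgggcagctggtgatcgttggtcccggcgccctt
RNU12: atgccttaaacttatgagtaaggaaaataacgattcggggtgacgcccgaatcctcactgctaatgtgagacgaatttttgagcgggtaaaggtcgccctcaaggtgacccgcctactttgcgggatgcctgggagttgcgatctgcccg
RNU4ATAC: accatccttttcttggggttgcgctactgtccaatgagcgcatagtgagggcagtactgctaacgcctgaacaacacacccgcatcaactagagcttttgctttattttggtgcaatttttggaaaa

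The minor spliceosome removes a rare class of introns, and RNU11, RNU12 and RNU4ATAC encode its U11, U12 and U4atac RNAs. These were the 3 kept of 28 spliceosomal RNA rows, and all 3 were past 2-fold higher with dTRIM24 than with IACS-9571. Between the compounds, 2 of these RNAs reached the floor only with dTRIM24 and so had to be higher with it. The 1 spliceosomal RNA row with at least 1 FPKM in DMSO at 4 h was not kept, being under 1 FPKM with both compounds. Its difference of 0.00 therefore does not show an expressed RNA that stayed level. RNU11 had 134 FPKM with dTRIM24, 7.44 FPKM with IACS-9571 and 0.0982 FPKM with DMSO. RNU12 had 26.4 FPKM with dTRIM24 and RNU4ATAC 19.0 FPKM, while both were near the lowest listed value, at 0.102 and 0.101 FPKM, with IACS-9571. No value of the table is 0, so a level near 0.1 FPKM is the lowest it lists, and a difference from such a level depends on the 1 FPKM added before the logarithm. RNU4ATAC had 8.48 FPKM with IACS-9571 at 24 h and 0.101 FPKM with dTRIM24 at 24 h, so its order was the opposite there. Of the SNAR RNAs, short polymerase III transcripts in near-identical copies, 7 of 22 were kept and all 7 were past 2-fold higher with dTRIM24 than with IACS-9571. SNAR-A1 had 35.8 FPKM with dTRIM24 and 5.27 FPKM with IACS-9571, and SNAR-A12, SNAR-A13 and SNAR-A2 had exactly its values in every group, which shows that the copies were not told apart. SNAR-B1 had 35.1 FPKM with dTRIM24 and 6.98 FPKM with IACS-9571. TERC, the RNA template of telomerase, had 1.23 FPKM with dTRIM24 and 0.167 FPKM with IACS-9571, a difference of 0.94. The vault RNAs went both ways, with VTRNA1-3 at 74.0 FPKM with dTRIM24 and 0.101 FPKM with IACS-9571, and VTRNA1-1 at 0.105 FPKM with dTRIM24 and 24.2 FPKM with IACS-9571.

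**Figure D3:**
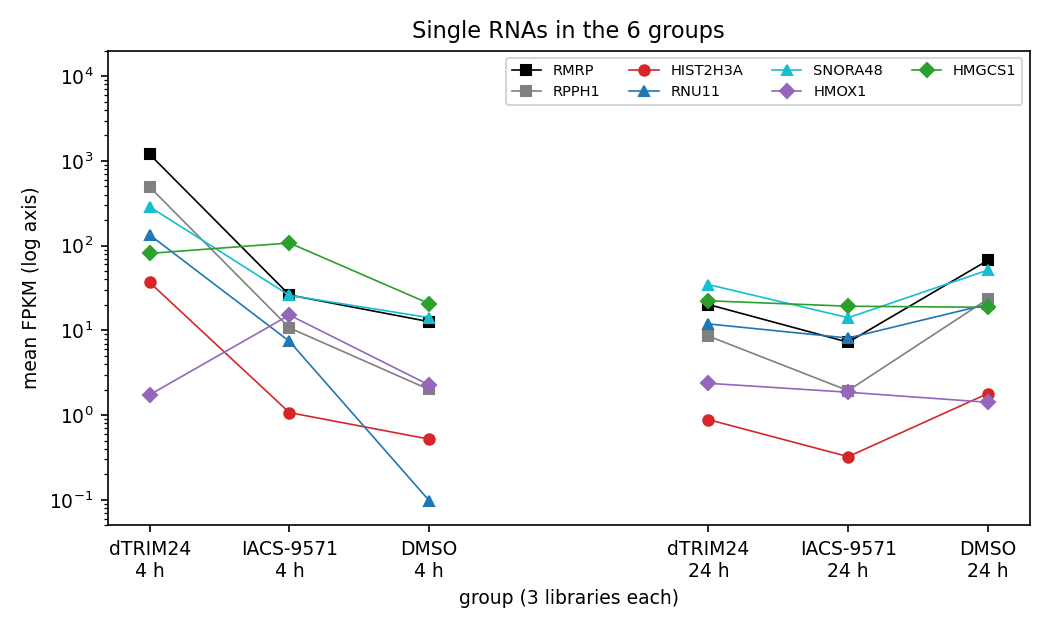
Mean FPKM (log axis) of 7 RNAs in the 6 groups, with 4 h on the left and 24 h on the right. At 4 h RMRP, RPPH1, HIST2H3A, RNU11 and SNORA48 are highest with dTRIM24, while HMOX1 and HMGCS1 are highest with IACS-9571; at 24 h RMRP, RPPH1, HIST2H3A, RNU11 and SNORA48 are highest with DMSO.

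Small nucleolar RNAs guide the modification of ribosomal and spliceosomal RNA, and most are cut from the introns of host genes. H/ACA RNAs direct pseudouridylation and end in an ACA box, while C/D RNAs direct ribose methylation and hold a C box (here TGATGA) and a D box (CTGA). The examples below were chosen after their values were seen, for their level in all 3 groups at 4 h, and show these boxes in capitals. SNORA48 lies at chr17:7574713-7574847, SNORA52 at chr11:811681-811814 and SNORD100 at chr6:132816802-132816877, all on the plus strand of GRCh38.

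SNORA48: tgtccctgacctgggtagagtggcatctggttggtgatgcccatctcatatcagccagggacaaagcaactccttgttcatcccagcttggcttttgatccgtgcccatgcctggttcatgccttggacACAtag
SNORA52: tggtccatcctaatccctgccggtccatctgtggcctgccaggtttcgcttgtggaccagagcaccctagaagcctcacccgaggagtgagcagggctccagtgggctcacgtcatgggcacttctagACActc
SNORD100: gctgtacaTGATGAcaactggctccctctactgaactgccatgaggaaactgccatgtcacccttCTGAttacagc

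The ACA box stood 3 bases from the end in 45 of the 66 kept H/ACA RNAs with a GENCODE sequence, and both C/D boxes were found near the ends in 38 of 49 kept C/D RNAs. Neither count bears on the compounds. They describe the GENCODE sequences under these symbols and do not show which RNAs the reads on the rows came from.

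Of 105 H/ACA rows 74 were kept, with 44 past 2-fold higher and 6 lower with dTRIM24 than with IACS-9571. Of the 57 rows with at least 1 FPKM in DMSO at 4 h, kept or not, 28 were higher and 3 lower, with a median of 0.98. The 51 of these that were kept had a median of 1.29. SNORA48 had 288 FPKM with dTRIM24, 25.9 FPKM with IACS-9571 and 14.1 FPKM with DMSO. SNORA52 had 216 FPKM with dTRIM24, 24.5 FPKM with IACS-9571 and 28.8 FPKM with DMSO. In both, the DMSO level was near that of IACS-9571 and far from that of dTRIM24. SNORA43 had 268 FPKM with dTRIM24 and 8.81 FPKM with IACS-9571, and SNORA7B, SNORA31, SNORA38 and SNORA21 had 34.4 to 40.7 FPKM with dTRIM24 and were near the lowest listed value with IACS-9571. The opposite held for SNORA47, at 0.104 FPKM with dTRIM24 and 15.5 FPKM with IACS-9571, SNORA65, at 0.103 FPKM with dTRIM24 and 7.30 FPKM with IACS-9571, and SNORA16B, at 3.28 FPKM with dTRIM24 and 19.2 FPKM with IACS-9571. SNORA50 and SNORA51 lay just past the lower bound, at -1.02 and -1.03, and SNORA10, at 0.98, just inside the upper one.

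Of 256 C/D rows 52 were kept, with 34 past 2-fold higher and 8 lower with dTRIM24 than with IACS-9571. Of the 27 rows with at least 1 FPKM in DMSO at 4 h, kept or not, 17 were higher and 2 lower, with a median of 1.84. The 25 of these that were kept had a median of 1.93. SNORD100 had 3249 FPKM with dTRIM24, 645 FPKM with IACS-9571 and 662 FPKM with DMSO. Many others were listed at their lowest value in one group and far above it in another. FPKM divides by length, so 1 fragment weighs more in a short RNA. Between the 2 compounds at 4 h, only dTRIM24 was above that lowest level in 22 of the 52, and only IACS-9571 in 6. DMSO at 4 h was not part of that count, and SNORD58C, 1 of the 22, had 200 FPKM there. SNORD47 had 554 FPKM with dTRIM24, 0.101 FPKM with IACS-9571 and 0.0935 FPKM with DMSO, but also 465 FPKM with DMSO at 24 h and 0.102 FPKM with dTRIM24 at 24 h. SNORD79, at 0.104 FPKM with dTRIM24 and 189 FPKM with IACS-9571, SNORD83A, SNORD111, SNORD12 and SNORD116-1 were lower, all near the lowest listed value with dTRIM24.

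Of the 27 copies of SNORD116, RNAs of the imprinted Prader-Willi region best known from brain, 16 were kept, with 11 past 2-fold higher and 1 lower. Of the 2 compounds at 4 h, only dTRIM24 was above the lowest listed level for 10 of the 16. Of the 4 kept copies with at least 1 FPKM in DMSO at 4 h, 2 were past 2-fold higher and 0 lower. SNORD116-24, SNORD116-8, SNORD116-17 and SNORD116-19 had 262 to 355 FPKM with dTRIM24 and were near the lowest listed value with IACS-9571. SNORD116-17 and SNORD116-19 have the same value in every group, 262 FPKM each with dTRIM24, so copies are not independent. The Cajal body RNAs, which guide the modification of spliceosomal RNAs, had 16 kept of 24, with 10 past 2-fold higher and 2 lower. For 7 of the 16 only dTRIM24, of the 2 compounds at 4 h, was above the lowest listed level. The 1 Cajal body RNA with at least 1 FPKM in DMSO at 4 h had a difference of 0.92 and was not past 2-fold. SCARNA22 had 30.04 FPKM with dTRIM24 and 0.103 FPKM with IACS-9571, SCARNA16 had 13.7 FPKM with dTRIM24 and 0.833 FPKM with IACS-9571. SCARNA21 and SCARNA2 had 9.14 and 5.52 FPKM with dTRIM24 and were near the lowest listed value with IACS-9571.

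A list of snoRNA host genes did not share the difference, though its members were not matched to the snoRNAs that differed. The 18 kept host genes had a median of -0.05 and the 12 core proteins of the snoRNA particles a median of 0.02. SNHG8, a host gene of H/ACA RNAs, had 565 FPKM with dTRIM24 and 599 FPKM with IACS-9571, and NOP58, a C/D core protein, had 150 FPKM with dTRIM24 and 129 FPKM with IACS-9571. MicroRNA precursors also lacked a common direction. Of 1283 rows 36 were kept, with a median of -0.78. With dTRIM24 12 of them were past 2-fold higher than with IACS-9571 and 17 lower. Of the 26 rows with at least 1 FPKM in DMSO at 4 h, kept or not, 7 were higher and 7 lower, with a median of 0.00. The 20 of these that were kept had a median of -0.16, and the rest were under 1 FPKM with both compounds. MIR3607, which lies within a snoRNA gene, had 0.104 FPKM with dTRIM24 and 583 FPKM with IACS-9571, and MIR922 had 536 FPKM with dTRIM24 and 0.0995 FPKM with IACS-9571. The other precursors named by size were MIR1909, MIR135A1, MIR1182 and MIR600 on the higher side and MIR147B, MIR3918, MIR4453 and MIR622 on the lower side.

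**Figure D4:**
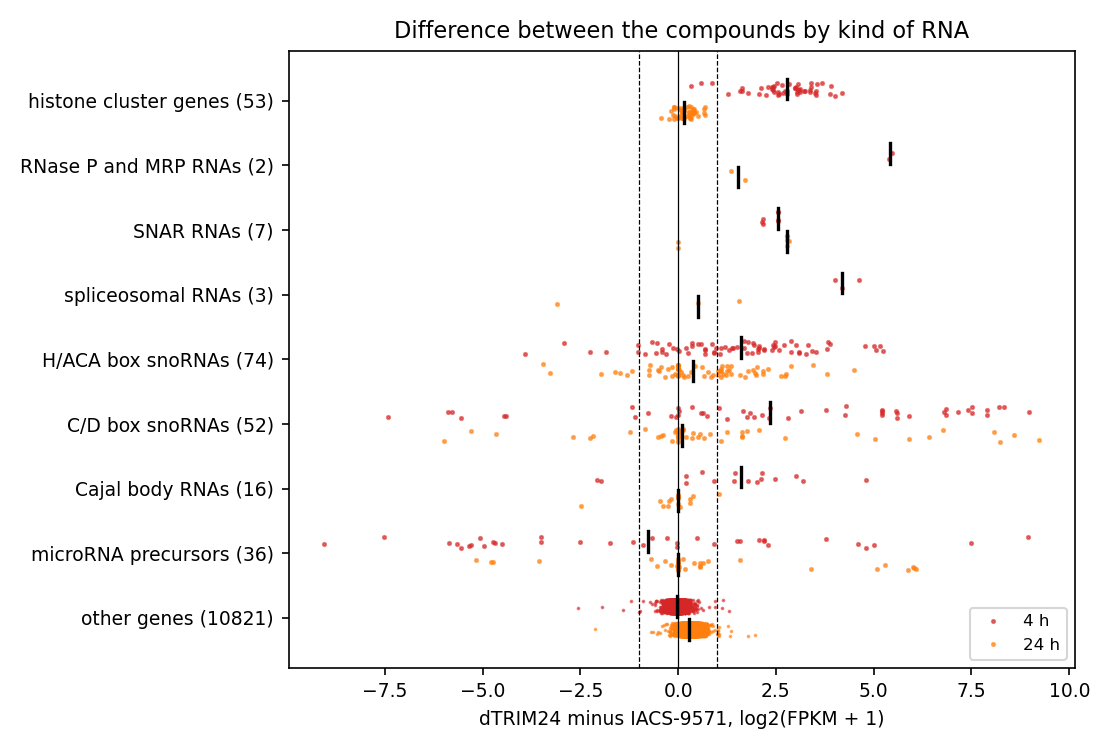
Difference of log2(FPKM + 1), dTRIM24 minus IACS-9571, for each kept gene by kind of RNA (number of genes in brackets), at 4 h in red and 24 h in orange, with the median as a black bar and dashed lines at a difference of 1 either way. At 4 h the histone genes sit between 0.32 and 4.19 with a median of 2.79, whereas at 24 h their median is 0.15; snoRNAs and microRNA precursors spread to both sides at both times.

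Outside these RNAs HMOX1 showed the largest difference, lower in the dTRIM24 group. HMOX1 encodes haem oxygenase, which breaks down haem and is a classic target of NRF2, the transcription factor of the oxidative stress response. HMOX1 had 1.74 FPKM with dTRIM24, 15.2 FPKM with IACS-9571 and 2.27 FPKM with DMSO, a difference of -2.56 between the compounds. The IACS-9571 group was thus high, and the dTRIM24 and DMSO groups lay near each other. At 24 h HMOX1 had 2.37 FPKM with dTRIM24, 1.86 FPKM with IACS-9571 and 1.42 FPKM with DMSO.

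The other 3 genes past 2-fold lower have near-identical copies in the genome, and how the counting divided such reads was not tested, so their values are uncertain. SRGAP2B, a copy of SRGAP2, had 0.535 FPKM with dTRIM24 and 4.87 FPKM with IACS-9571. EIF3CL, a copy of EIF3C, had 0.156 FPKM with dTRIM24 and 2.05 FPKM with IACS-9571, and RNF5 1.31 FPKM with dTRIM24 and 4.34 FPKM with IACS-9571. The 3 genes past 2-fold higher were all under 5 FPKM. MALAT1, a nuclear long RNA, had 3.58 FPKM with dTRIM24, 1.05 FPKM with IACS-9571 and 0.911 FPKM with DMSO; its processed end has no poly(A) tail either, although it was counted among the other genes. CNTF, a neurotrophic cytokine gene, had 2.19 FPKM with dTRIM24 and 0.286 FPKM with IACS-9571, and the read-through gene C17orf61-PLSCR3 had 1.89 FPKM with dTRIM24 and 0.330 FPKM with IACS-9571. Of the 8146 other genes that reached 5 FPKM in either group, 2 were past 1.5-fold higher, SLX1A at 0.63 and the pseudogene RPLP0P2 at 0.79, and 3 were lower, HMOX1, H3F3A and MVD.

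The other genes as a whole differed little. Their differences had an SD of 0.123, less than that of the spike-ins, and 10442 of 10821, or 96.5%, lay within 0.25 of 0. What difference there was ran with base composition. Across 10043 genes with a GENCODE transcript the difference fell with GC content (Spearman's rho -0.63, a description across genes of the same libraries), with a median of 0.08 in the tenth of lowest GC content and -0.13 in the tenth of highest. For several lists the median is given also with this trend taken out. Of the other genes 6239 of 10821 lay below 0, and a list's count is to be read against that.

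Sterol synthesis genes, which SREBP2 turns on when cells lack cholesterol, were above DMSO with both compounds and less so with dTRIM24. Of 47 kept members 42 lay below 0 in the comparison of dTRIM24 with IACS-9571, with a median of -0.21, which became -0.22 once the trend with GC content was removed. Against DMSO at 4 h the median was 0.38 with dTRIM24 and 0.72 with IACS-9571. None was past 2-fold between the compounds. The median is within the SD of the spike-ins, but that SD is a spread between single RNAs. It does not measure the error of a median over 47 genes.

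All 9 enzymes of the mevalonate branch were lower with dTRIM24 than with IACS-9571, with a median of -0.23. MVD, which makes isopentenyl diphosphate, had 18.9 FPKM with dTRIM24, 29.03 FPKM with IACS-9571 and 12.6 FPKM with DMSO, a difference of -0.59. HMGCS1, which makes HMG-CoA, had 81.1 FPKM with dTRIM24, 108 FPKM with IACS-9571 and 20.7 FPKM with DMSO. MVK, mevalonate kinase, had 23.2 FPKM with dTRIM24, 31.4 FPKM with IACS-9571 and 10.7 FPKM with DMSO. The order IACS-9571, then dTRIM24, then DMSO thus held for all 3. Of 13 enzymes from squalene to cholesterol 12 were below 0, and DHCR7, which makes cholesterol in the last step, had 47.8 FPKM with dTRIM24, 62.7 FPKM with IACS-9571 and 23.2 FPKM with DMSO. Of 12 fatty acid genes 11 were below 0, among them FADS2, a desaturase, at 41.7 FPKM with dTRIM24 and 56.6 FPKM with IACS-9571, and FASN, fatty acid synthase, at 67.1 FPKM with dTRIM24 and 87.3 FPKM with IACS-9571. Of 13 genes of control and uptake 10 were below 0, and the exceptions were MBTPS2, STARD4 and MYLIP, at 0.06, 0.03 and 0.03. STARD4, a sterol carrier, had 10.7 FPKM with dTRIM24, 10.5 FPKM with IACS-9571 and 4.25 FPKM with DMSO. The exceptions outside that role were LBR and ACSL3, both at 0.02.

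NRF2 targets stood lower too, by less. Of 41 kept members 36 lay below 0, with a median of -0.13, which became -0.12 once that trend was removed. The median against DMSO was -0.10 with dTRIM24 and 0.05 with IACS-9571. The 7 haem and iron genes were all below 0, with a median of -0.27. FTH1, the ferritin heavy chain, had 339 FPKM with dTRIM24, 492 FPKM with IACS-9571 and 371 FPKM with DMSO, a difference of -0.53, and SLC48A1, a haem transporter, had 4.42 FPKM with dTRIM24 and 6.10 FPKM with IACS-9571. For FTH1, as for HMOX1, IACS-9571 was the group that stood apart. All 9 genes of NADPH supply and quinone reduction were below 0, with ME1, malic enzyme, at 14.3 FPKM with dTRIM24 and 17.9 FPKM with IACS-9571, and NQO2, a quinone reductase, at 10.6 FPKM with dTRIM24 and 13.1 FPKM with IACS-9571. SQSTM1, the autophagy receptor p62, had 37.9 FPKM with dTRIM24 and 47.4 FPKM with IACS-9571. All 6 thioredoxin genes and 7 of 10 glutathione genes were below 0 as well, with medians of -0.10 and -0.09. The exceptions in the list were SLC7A11, MGST1 and ABCC4 among the glutathione genes, and NFE2L2 itself and its rival BACH1 among the controls, between 0.01 and 0.05.

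**Figure D5:**
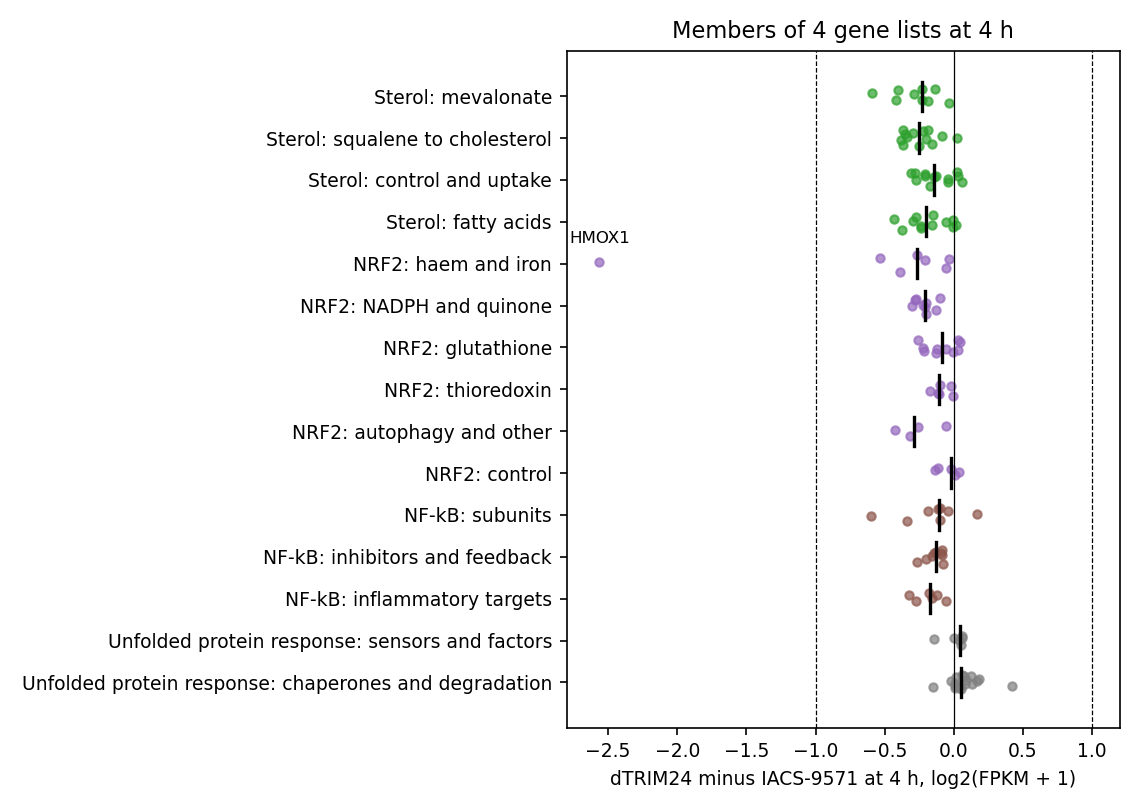
Difference of log2(FPKM + 1) at 4 h, dTRIM24 minus IACS-9571, for each kept member of the sterol, NRF2, NF-kB and unfolded protein response lists by role, with the median as a black bar and dashed lines at a difference of 1 either way. HMOX1, at -2.56, is the 1 member past 2-fold; the sterol medians lie between -0.25 and -0.15 and those of the unfolded protein response at 0.05.

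Promoters from RefSeq (GRCh38.p14, 250 bases before to 50 after the start) were searched on both strands for TCACNCCAC, the sterol response element that SREBP binds, and TGACNNNGC, the antioxidant response element that NRF2 binds. The sterol element was found in 1 of 39 promoters of kept sterol genes, or 2.56%, against 1.15% of 27305 promoters and 1 of 31, or 3.23%, in the NRF2 list. The antioxidant element was found in 7 of 31 promoters of kept NRF2 list genes, or 22.6%, against 13.6% of all and 5 of 39, or 12.8%, in the sterol list. Sites in SREBF2, the SREBP2 gene, and in ME1 and TXNRD1, a thioredoxin reductase, are shown as examples of each, with the match in capitals and 10 bases either side.

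SREBF2: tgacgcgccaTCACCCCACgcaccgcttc
ME1: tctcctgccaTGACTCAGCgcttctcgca
TXNRD1: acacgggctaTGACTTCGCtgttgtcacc

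SREBF2 had 42.1 FPKM with dTRIM24 and 51.3 FPKM with IACS-9571, and TXNRD1 had 109 FPKM with dTRIM24 and 118 FPKM with IACS-9571. These matches are letters in a window and not shown to be bound.

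NF-kB genes, the early inflammatory response, had 22 of 23 kept members below 0 and a median of -0.13, or -0.11 with the GC trend taken out. TNF, an inflammatory cytokine, had 11.6 FPKM with dTRIM24, 14.8 FPKM with IACS-9571 and 15.4 FPKM with DMSO. The largest difference was that of NFKB2, a precursor of the p52 subunit, at -0.60 but under 5 FPKM. The exception was CHUK, a kinase of the pathway, at 34.4 FPKM with dTRIM24 and 30.5 FPKM with IACS-9571. All 7 kept genes of the metallothionein list, whose products bind or export zinc, were below 0 with a median of -0.17, or -0.12 with the GC trend removed, and MT2A stood at 93.4 FPKM with dTRIM24, 111 FPKM with IACS-9571 and 119 FPKM with DMSO. Of 14 kept immediate early genes 12 were below 0, with a median of -0.16 that became -0.09 without the GC trend.

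Genes of the unfolded protein response, which refolds or removes proteins in the endoplasmic reticulum, had 22 of 26 members above 0, but a median of only 0.05 with or without the GC trend. DNAJB9, a chaperone partner, had 12.1 FPKM with dTRIM24, 8.74 FPKM with IACS-9571 and 8.10 FPKM with DMSO, a difference of 0.42. DNAJC3 and HSPA5, the chaperone BiP, had differences of 0.18 and 0.17. The 4 below 0 were ERN1, SYVN1, EDEM1 and ATF4.

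The RNAs of the compounds' own targets differed little. TRIM24 had 17.3 FPKM with dTRIM24, 17.6 FPKM with IACS-9571 and 14.6 FPKM with DMSO, a difference of -0.02; the design concerns its protein, which RNA does not measure. Its relatives TRIM28, a corepressor, and TRIM33 had differences of -0.14 and 0.03. BRPF1 itself had 7.07 FPKM with dTRIM24 and 7.93 FPKM with IACS-9571, and the 9 kept genes of its complexes had a median of -0.05 and lay between -0.14 and 0.03. VHL had 9.72 FPKM with dTRIM24 and 10.4 FPKM with IACS-9571, and the 8 genes of its ligase lay between -0.15 and 0.12. The 26 kept genes of the HIF pathway, the best known substrate of VHL and its targets, had a median of -0.08, or -0.07 without the GC trend, with EPAS1, the HIF-2 alpha gene, at 10.3 FPKM with dTRIM24, 13.9 FPKM with IACS-9571 and 11.4 FPKM with DMSO. The 6 genes of a list of BET bromodomain proteins and HEXIM1 were all below 0. Their median was -0.14, or -0.11 without the GC trend. HEXIM1, a usual reporter of BET inhibition, was at 7.78 FPKM with dTRIM24 and 8.53 FPKM with IACS-9571.

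The leukaemic programme of the line was nearly level between the compounds. The 13 kept HOXA and MEIS1 genes, which the MLL fusion of this line drives, had a median of -0.05 with or without the GC trend, with HOXA9 at 30.2 FPKM with dTRIM24 and 33.9 FPKM with IACS-9571. The 27 kept myeloid differentiation genes also had a median of -0.05, which became 0.01 without that trend, with AZU1, a granule protein, at 737 FPKM with dTRIM24 and 865 FPKM with IACS-9571, and LYZ, lysozyme, at 438 FPKM with dTRIM24 and 401 FPKM with IACS-9571. The 29 genes of MYC and ribosome biogenesis had a median of 0.00, the 23 of mitosis -0.04 and the 10 housekeeping genes -0.04. The 82 cytosolic ribosomal protein genes had 75 members below 0 and a median of -0.08; RPL21, which has many processed copies, was the widest exception at 440 FPKM with dTRIM24 and 317 FPKM with IACS-9571.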

How the data were processed

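RNA of MOLM-13 cells was sequenced with spike-ins added after normalization by cell count, per the labels' protocols. The deposited FPKM values were made by the authors; the submitters' processing notes name TopHat2, Cuffnorm and the build hg19. For versions, gene models and strand, nothing is stated in these sources. Values are 1 mean per group, and no other column was used. Differences of log2(FPKM + 1) between group means were computed in Python 3.11.15 (pandas 2.3.3, numpy 2.4.6, scipy 1.17.1), without ERCC rows, and the steps were tested on simulated data. The planned limma test needs values per library, so none was run.

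Kinds of RNA were taken from gene symbols. The members and lists were chosen with earlier results of these data known. Named genes were, among genes with a tail, all past 2-fold and up to 12 in either direction past 1.5-fold, from 5 FPKM upward; up to 5 each way per kind of RNA; up to 6 per list described; all target genes; and exceptions. Others are said to be chosen after their values were seen, as are HIST1H1D, HIST1H2BK and HIST2H2BC, the 3 histone genes not past 2-fold, SNORA10, TERC, SNHG8, HEXIM1 and genes beside sites or markers. GC content (10271 of 11069 kept rows matched, 92.8%) and small RNA sequences came from GENCODE transcripts on GRCh38, by symbol. The alternatives are given at the end.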

Additional observations from a re-analysis of the deposited data

How the results depend on the processing

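The counts of genes past 2-fold higher and lower with dTRIM24 at 4 h, 166 and 38, stayed within 1.5 times under pseudocounts of 0.1 and 0.5, quantile normalization, no floor, spike-in rescaling, median centring, a floor of 5 FPKM, a 1.5-fold threshold and the GC trend taken out, between 147 and 188 higher and between 32 and 51 lower. They were 62 and 4 without small RNAs and 3 and 4 without any RNA lacking a poly(A) tail, by the construction of those counts. With at least 1 FPKM in both columns, an alternative chosen after seeing the data, they were 74 and 9. Of the values of named genes, 392 kept their side of the bound, C17orf61-PLSCR3 left it at 0.86 under quantile normalization, and HIST1H1D passed it at 2.45 and 1.32 with pseudocounts of 0.1 and 0.5; none changed sign while past the bound. Of the medians by kind of RNA and by list 396 moved little and 15 moved more. The histone median of 2.79 was 3.87 and 3.29 with pseudocounts of 0.1 and 0.5, and 2.56 with at least 1 FPKM in both columns. That last setting gave 0.88 for C/D RNAs, 1.14 for H/ACA RNAs and 0.20 for Cajal body RNAs, whose median was 3.17 with a pseudocount of 0.1. The microRNA precursor median had the opposite sign, 0.49, with at least 1 FPKM in both columns. No paired analysis was possible because the table holds 1 mean per group; leaving out replicates was not run for the same reason. Depth is unknown, and RNAs short enough to hold few fragments are the least certain.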

Other observations

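Other programmes also lay near the rest of the genes between dTRIM24 and IACS-9571 at 4 h. The 18 kept p53 targets had a median difference of -0.07, with PHLDA3 at 13.6 FPKM with dTRIM24 and 16.8 FPKM with IACS-9571, and the apoptosis inducer PMAIP1 at 16.5 FPKM with dTRIM24 and 14.1 FPKM with IACS-9571. The 14 kept BCL2 family genes had a median of -0.02. The 25 kept genes of the ATF4 response, which adjusts amino acid supply under stress, had a median of -0.02, with DDIT4 at 201 FPKM with dTRIM24, 239 FPKM with IACS-9571 and 206 FPKM with DMSO. The 17 kept heat shock genes had a median of -0.02 and the 31 proteasome genes a median of -0.05. Of 17 kept interferon genes IFI6 lay furthest down, at 0.707 FPKM with dTRIM24 and 1.58 FPKM with IACS-9571, while the list had a median of -0.04. The 8 kept retinoic acid genes had a median of -0.09, or -0.01 with the GC trend taken out, and the 5 kept LXR genes one of -0.07, or -0.02 without that trend. The 72 genes of oxidative phosphorylation had a median of -0.05, with 55 below 0, and the 76 mitochondrial ribosomal protein genes a median of -0.02. None of these lists had a member past 2-fold.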
